A study of Mus musculus with 8 samples.

Results

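H3 target sites 1, 6 and 7 are 3 of the 26 sites, each 20 bases long, that were amplified and sequenced in this study, and 3 of its 9 H3 target sites. They were chosen by the shares of changed bases measured in the edited libraries, which differ strongly from library to library at these sites, so those shares are given below as a description with no test. The rule took every line of the 3 sites, 480 of the 4160 lines of the table. It states no numeric threshold, and on the main product alone the choice is not sharp: C5T spanned 22.9 percentage points over the edited libraries at site 1, against 28.4 at site 9, which was not chosen, and 19.3 to 20.4 at sites 3, 4, 5 and 8. At sites 6 and 7 the span was 88.7 and 94.2 points.

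The DNA came from C57BL/6 mouse embryos taken 19.5 days after microinjection. The 4 wild-type libraries carry the genotype label H3R17/Carm1 wild type. The 4 edited libraries carry the label H3R17H/Carm1-/-, a change of the arginine at H3 residue 17 to histidine combined with loss of Carm1. Neither the editor and its dose nor any injection of the wild-type embryos is described in the labels. Nor do the labels say whether a library is 1 embryo or a pool, so the spread between libraries may be partly technical and a share of base calls does not tell the number of edited cells from the number of edited copies per cell.

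As background, histone H3 is one of the core proteins around which DNA is wound, and its N-terminal tail carries lysines and arginines that are modified by enzymes. Arginine 17 is methylated by CARM1, a coactivator that promotes transcription. A cytosine base editor joins a Cas9 protein that does not cut both strands to a deaminase, which turns cytosine into uracil in a short window near the guide's 5′ end, and replication or repair then fixes it as thymine. Mammalian genomes hold many near-identical H3 genes, and the RefSeq table of GRCm38.p6 names 12 of them as H3c genes, 9 on chromosome 13 and 3 on chromosome 3. The sources used here do not place sites 1, 6 and 7 on single genes or give their coordinates.

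All 3 sites hold the same 20 bases, which are also those of sites 2, 3, 4, 5 and 8, so a difference between the 3 sites is not a difference in the guide-matched sequence. The reference is shown with the 6 positions followed here (1, 5, 7, 12, 13 and 15) in capitals, and then on the coding strand with the arginine 17 codon in capitals.
Guide-matched strand: CttgCgCggggCCtTgccgc
Coding strand: gcggcaaggccccgCGCaag
Positions are counted from 1 at the 5′ end of the guide-matched strand, and each change is written with the reference base first. The reading frame is the one in which the coding strand encodes residues 13 to 18 of H3. The products that the values turn on are shown next, with the changed base in capitals. The last of them was put together from its 2 changes, since the table holds single positions and no whole reads.
C5T: cttgTgcggggccttgccgc
C5A: cttgAgcggggccttgccgc
C7T: cttgcgTggggccttgccgc
C7A: cttgcgAggggccttgccgc
C1G: Gttgcgcggggccttgccgc
T15A: cttgcgcggggcctAgccgc
C5T with C7T: cttgTgTggggccttgccgc
Position 5 is the middle base of the arginine 17 codon: C5T gives histidine (R17H), C5A leucine (R17L) and C5G proline (R17P). Position 7 is the last base of the proline 16 codon, and every change there is synonymous. At position 1 the last base of the lysine 18 codon is met, so that C1T is synonymous and C1A and C1G give asparagine (K18N). C12T, C12A and C12G replace alanine 15 by threonine (A15T), serine (A15S) or proline (A15P). C13T leaves lysine 14 as it is, C13A and C13G give asparagine (K14N), and T15A turns the lysine 14 codon into a stop codon, while T15C and T15G give glutamate (K14E) and glutamine (K14Q).

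Median depth over the 20 positions ran from 13407 to 38312.5 reads per site and library, with 22828 to 38312.5 at site 1, 13407 to 36543.5 at site 6 and 14181.5 to 30042 at site 7. The Wilson 95% interval of a share from such counts is narrow: 5.18% C5T at site 6 in edited replicate 2, or 843 of 16287 reads, has an interval of 4.85 to 5.53%. Because PCR copies were not told apart by molecular identifiers, these intervals cover counting error only.

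At position 5 the libraries of a group agreed in wild type and parted widely in the edited group. Wild-type replicates 1 to 4 had 0.0427%, 0.0343%, 0.0137% and 0.0354% C5T at site 1, and at sites 6 and 7 no wild-type library was above 0.0374%. Edited replicates 1 to 4 at site 1 had 42.9%, 28.9%, 51.8% and 48.2% C5T, a mean of 42.9% ± 10.1 (SD, n = 4). Replicate 2 was the low one there, and the other 3 lay between 42.9% and 51.8%. At site 6 the same libraries had 60.3%, 5.18%, 46.7% and 93.9%, with a mean of 51.5% ± 36.7. At site 7 they had 16.02%, 85.8%, 96.5% and 2.27%, with a mean of 50.1% ± 47.9. Replicate 2 was thus lowest at site 6 and second highest at site 7, and replicate 4 was highest at site 6 and lowest at site 7. The edited and wild-type values did not overlap at any of the 3 sites, which is part of what the rule used.

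Averages over sites hide this spread. Taken over sites 1, 6 and 7 together, edited replicates 1 to 4 had a mean C5T of 39.7%, 40.0%, 65.0% and 48.1%, beside 36.9%, 44.1%, 56.8% and 48.8% over sites 3, 4, 5 and 8. Site by site, the SD between edited libraries was 36.7 and 47.9 points at sites 6 and 7, against 8.08 to 8.58 at sites 3, 4, 5 and 8 and 10.1 at site 1. Sites 3, 4, 5 and 8 have nearly the same C5T share in each library, and how reads were divided among H3 copies is not given. Their narrow spread is therefore not a yardstick for single copies.

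The R17H product was nearly pure at most site and library combinations. Of all changed bases at position 5, thymine made up 98.4 to 99.97% at site 1 and 99.3 to 99.7% at site 7. Site 6 was the exception. In edited replicate 3, C5A reached 19.3% (Wilson 18.7 to 19.9%, 3041 of 15767 reads), so that this library held 33.7% arginine, 46.7% histidine, 19.3% leucine and 0.311% proline codons at site 6, judged from position 5 alone. C5A in edited replicates 1, 2 and 4 at site 6 was 0.133%, 0.571% and 0.0308%, and the thymine share of changed bases was 99.8%, 90.1% and 99.95%. The highest C5A elsewhere was 0.458% at site 1 and 0.350% at site 7, both in edited replicate 2. In that same library C5A stood at 7.52 to 7.83% at sites 3, 4, 5 and 8, whereas in edited replicate 3 those sites had 0.281 to 0.381%. The leucine product of site 6 in replicate 3 was therefore far above that of any other H3 target site of the library. The leucine shares of replicate 2 at sites 1, 6 and 7 were far below those of sites 3, 4, 5 and 8 and slightly above those of sites 2 and 9 (0.345% and 0.339%). C5G stayed below 1% throughout, with highest values of 0.311% at site 6, 0.180% at site 1 and 0.121% at site 7, all in edited replicate 3.

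C7T, the synonymous change of proline 16, was large at sites 1 and 7 and small at site 6. At site 1 edited replicates 1 to 4 had 0.0525%, 53.6%, 0.227% and 0.723% C7T, against 0.00385 to 0.0172% in wild type. Only replicate 2 was high, and there C7T exceeded C5T (28.9%), although position 5 had the larger share in the other 3 edited libraries. The mean of 13.7% ± 26.7 (SD, n = 4) at site 1 was 0.334% without replicate 2. At site 7 the values were 11.8%, 89.5%, 19.4% and 0.502%, with a mean of 30.3% ± 40.2 that was 10.6% without replicate 2. Wild-type libraries had 0.0119 to 0.0415% at that site. At site 6 C7T was 0.137%, 1.18%, 0.329% and 1.07% in edited libraries and at most 0.00936% in wild type. Replicate 4, with 93.9% C5T at site 6, thus had 1.07% C7T, whereas replicate 2 at site 7 had 85.8% C5T and 89.5% C7T. High conversion at position 5 did not go with high conversion at position 7 in every library.

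The table gives no linkage between positions, but the counts set limits on it. At site 7 in edited replicate 2, 12025 reads had C5T and 10379 had C7T, and the deepest position held 16838 reads. If no more reads than that covered the site, at least 5566 of them, or 33.1%, carried both changes. The upper limit is 61.6% from called bases alone and 88.2% if every read without a call at positions 5 and 7 is counted as changed. In the other 11 combinations of site and edited library the lower limit was 0. At site 1 in edited replicate 2 the limits were 0 and, counted in the latter way, 33.6%, so that whether its 28.9% C5T and 53.6% C7T lie on the same or on separate reads cannot be told from these values. At site 7 in replicate 3 at most 28.4% of reads could carry both.

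Other bases at position 7 were rare. C7A passed 1% at sites 1 and 6 in edited replicate 4 (1.03% and 1.26%) and at site 6 in replicate 1 (1.09%). In replicates 2 and 3 it was no higher than 0.0172% at any of the 3 sites. Site 7 had 0.421% and 0.576% in replicates 1 and 4. The same 2 libraries were the ones with C7A at sites 3, 4, 5 and 8, where the means were 8.41% and 19.5%. As a percent of these means, C7A in replicate 4 was 5.28 at site 1, 6.46 at site 6 and 2.96 at site 7. C7G stayed at or below 0.0604%.

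The remaining listed positions changed in single libraries. C1G was 8.26% at site 1 in edited replicate 1 (Wilson 7.94 to 8.60%, 2246 of 27181 reads). Judged from position 1 alone, it replaces lysine 18 by asparagine. It was 0.00522%, 0% and 0.00620% in edited replicates 2, 3 and 4 at that site, where 0 of 25125 reads allows a share of up to 0.0119%. In replicate 1 it was 0.135% at site 6, 0.0130% at site 7 and at most 0.538% at the other H3 sites. C1G at site 1 in replicate 1 thus stood apart from every other H3 target site of the same library. C1A and C1T did not exceed 0.135% and 0.141%, both at site 6.

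C13T, synonymous in lysine 14, was high in edited replicate 1, with 0.506% at site 1, 0.955% at site 6 and 0.492% at site 7. In the other 3 edited libraries it was at most 0.0117%, within the wild-type range of up to 0.0185%. Site 9, which differs from the other H3 target sites by G10A, had 36.4% C13T in that library, and sites 3, 4, 5 and 8 had 2.10 to 2.19%. T15A, the stop codon product, was 0.986% at site 6 (153 of 15512 reads) and 0.498% at site 7 in edited replicate 2, and at most 0.0308% at site 1 in any edited library. Site 8 had 2.15% in the same library. Position 12 showed no product: its highest edited share was 0.0285%, below the highest wild-type share of 0.0365%, so no change of alanine 15 was detectable above background at this depth.

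In all, 10 of the 54 changes possible at the 6 listed positions reached 1% in at least 1 edited library: 4 at site 1, 4 at site 6 and 2 at site 7. They were C5T and C7T at each site, C1G and C7A at site 1, and C5A and C7A at site 6. The other 44 stayed at or below 0.986%. The 4 edited values lay above all 4 wild-type values for 8 of the 54, or 14.8%, against 3.78% of the 1560 changes possible over all 26 sites and positions. Since these positions were chosen on the edited shares, nothing is read from that difference. The 8 were C5T and C7T at all 3 sites, C5A at site 6 and C7A at site 7. For C7A at site 7 the lowest edited value was 0.0131% and the highest wild-type value 0.00921%. Both lie under the share of about 0.02% that 3 reads make up.

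The other 14 positions are those left over when the listed ones were chosen on the edited shares. That choice favours low edited shares there, so neither the count nor the average below is separate evidence. There, 1 of 126 changes had its 4 edited values above all wild-type values, or 0.794%. The 3.78% of the whole table includes the listed positions, and nothing is read from the difference. That change was G16T at site 7, synonymous in glycine 13, with 0.00582 to 0.0205% against at most 0.00447%. Most of these values lie under the share of about 0.02% that 3 reads make up. Most of the non-reference share over these positions comes from G4A, G10A and G19A, described below, so its average says little about rarer changes. That average did not differ beyond the spread between libraries. At site 1 the edited mean was 0.191% ± 0.104 and the wild-type mean 0.223% ± 0.0708 (SD, n = 4 each, exact permutation p = 0.686, adjusted p = 0.932 over the 9 H3 sites). At site 6 it was 0.305% ± 0.184 against 0.356% ± 0.122 (exact permutation p = 0.743, adjusted p = 0.932), and at site 7 0.170% ± 0.0915 against 0.185% ± 0.0614 (exact permutation p = 0.8286, adjusted p = 0.932). The intervals of these differences, -0.188 to 0.196, -0.298 to 0.330 and -0.145 to 0.175 percentage points at sites 1, 6 and 7, span the differences between any edited and any wild-type library and hold 0.

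Among these positions 3 guanines had changes that reached 0.5%, and 2 of the 3 changes divided the libraries in a way that did not follow the groups. G4A at site 6 was 0.00340%, 1.46%, 1.51% and 1.60% in wild-type replicates 1 to 4 and 1.93%, 0.0302%, 1.51% and 0.0190% in edited replicates 1 to 4. Wild-type replicate 1 and edited replicates 2 and 4 thus had hardly any, and the other 5 libraries had it. The same 5 libraries had G4A of 1.09 to 1.42% at site 1 and 0.492 to 0.793% at site 7, and G19A of 0.987 to 1.36%, 2.06 to 2.67% and 0.956 to 1.39% at sites 1, 6 and 7. In the 3 low libraries neither change passed 0.0359% at any of the 3 sites. The other 6 H3 sites had at most 0.130% of either change in these libraries, whereas the means of sites 3, 4, 5 and 8 were 18.7 to 21.5% in the 5 others. Both guanine changes were thus far smaller at sites 1, 6 and 7 than at those 4 sites, with G4A synonymous in arginine 17. G10A was present in every library, at 0.756 to 1.40% at site 1, 1.44 to 2.12% at site 6 and 0.779 to 1.21% at site 7. The other 117 changes at these positions stayed at or below 0.150%.

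Relative to other H3 sites, G4A had a similar order of sites in both groups. At site 1 it was 5.14 to 6.19% of its mean at sites 3, 4, 5 and 8 in the 3 wild-type libraries that had it, and 7.35 to 7.67% and 2.29 to 3.37% at sites 6 and 7. In edited replicates 1 and 3 the ratios were 5.39 to 7.56% at site 1, 7.48 to 10.3% at site 6 and 2.94 to 4.22% at site 7. The size of the ratio differed between the guanine changes. In the same edited libraries G19A had 4.93 to 7.27% at site 1, 10.3 to 14.3% at site 6 and 5.91 to 7.44% at site 7. Over the 4 edited libraries G10A had 18.9 to 24.6%, 30.6 to 40.4% and 14.5 to 22.0% at sites 1, 6 and 7. The small edited shares are set beside these ratios, which give no single level for a site. At site 7 in edited replicate 4, C5T of 2.27% was 4.66% of the mean at sites 3, 4, 5 and 8, C7T of 0.502% was 3.69% of it and C7A of 0.576% was 2.96%. At site 6 in edited replicate 2, C5A of 0.571% was 7.43% of that mean, C5T of 5.18% was 11.7% and C7T of 1.18% was 33.9%. The lowest C5T shares of sites 6 and 7 were thus small fractions of the level at sites 3, 4, 5 and 8 of the same library. They were not the lowest among all H3 sites: site 2 had 2.40% C5T in edited replicate 2 and 2.34% in replicate 4, and site 9 had 30.4% and 2.07%. Whether they come from reads of other H3 copies was not tested. For C13T in edited replicate 1, the G10A share times the 36.4% C13T of site 9 gave 0.447%, 0.772% and 0.439% at sites 1, 6 and 7, beside the measured 0.506%, 0.955% and 0.492%. The measured share was above the product at each site. The product takes all G10A reads to come from site 9, which was not tested, and the values are set side by side only.

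Read depth is the count of reads with a base call, the number over which the base shares are taken. It is thus not independent of the shares that chose these sites, and tests of it at position 5 are not separate evidence. The depth dipped most at single positions. Relative depth is the depth at a position over the median of the 20 positions of that site and library, divided by the wild-type mean of the same ratio. In wild-type libraries it stayed between 0.974 and 1.01 at all 20 positions of the 3 sites. At position 5 of site 1 it was 0.916, 0.949, 0.912 and 0.929 in edited replicates 1 to 4, below every wild-type library (difference -0.0735, interval -0.0892 to -0.0496, exact two-sided permutation p = 0.0286, adjusted p = 0.106 over 26 sites). At site 7 it was 0.974, 0.855, 0.833 and 0.992, again below every wild-type library (difference -0.0864, interval -0.169 to -0.00620, exact permutation p = 0.0286, adjusted p = 0.106). At site 6 it was 0.930, 1.002, 0.933 and 0.896, and replicate 2 lay among the wild-type values (difference -0.0599, interval -0.109 to 0.00481, exact permutation p = 0.114, adjusted p = 0.270). So 2 of the 3 sites had edited depths below all wild-type depths, against 26.9% of the 26 sites (7 of 26), the other 5 being H3 target sites as well. None of the 26 passed after adjustment, which needs at least 15 sites at the smallest p.

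With any single wild-type library removed, the site 7 difference stayed at -0.0859 to -0.0869, all edited values still lay below the wild-type ones, and the exact permutation p rose to 0.171. The difference shrank from -0.0864 to -0.0596 without edited replicate 3. At site 6 the difference grew to -0.0805 without edited replicate 2 (exact permutation p = 0.0286). Under a depth reference of positions 1 and 20, or of the highest position, site 6 also passed (exact permutation p = 0.0286 for both), while the calls at sites 1 and 7 ended when the window of positions 4 to 8 or position 7 took the place of position 5.

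The dips at positions 5 and 7 were deep against their direct neighbours, but falls lay elsewhere as well. The deepest was 0.678 at position 15 of site 1 in edited replicate 1, described below, and others were smaller. Relative depth was below all wild-type values of the 3 sites in 11 of 12 combinations of site and edited library at position 5 and 6 at position 7. The count was 10 at position 1, 8 at position 10 and 7 at position 9, with lowest values of 0.974, 0.979 and 0.985. At positions 5 and 7 the lowest values were 0.833 and 0.713. Against the mean of its neighbours, and relative to wild type, position 5 kept 0.824 of its reads at site 7 in edited replicate 3 and 0.840 in replicate 2, the libraries with 96.5% and 85.8% C5T. It kept 0.991 in replicate 4, with 2.27% C5T. Position 7 kept 0.702 of its reads at site 7 in replicate 2, with 89.5% C7T, 0.905 in replicate 3, with 19.4%, and 0.830 at site 1 in replicate 2, with 53.6%. Wild-type values ran from 0.996 to 1.01 at position 5 and from 0.999 to 1.001 at position 7. Over the 12 combinations of site and edited library, this local depth and the share of T had a Pearson r of -0.918 and a Spearman rho of -0.867 at position 5, and -0.994 and -0.853 at position 7. These are descriptions: the 12 points come from 4 libraries, and position 7 rests on few high points. The fall was not the same for equal conversion, since position 5 kept 0.885 of its reads at site 6 in replicate 4 with 93.9% C5T.

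Shares of base calls therefore leave out reads without a call at the changed base. Set against the reads expected from the wild-type profile, C5T was 84.2% at site 6 in replicate 4 in place of 93.9%, and 80.4% and 73.4% at site 7 in replicates 3 and 2 in place of 96.5% and 85.8%. C7T at site 7 in replicate 2 came to 63.8% in place of 89.5%, and at site 1 in replicate 2 to 45.0% in place of 53.6%. Which bases the missing reads carry is not known.

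Site 1 in edited replicate 1 had a different depth profile. Positions 16 to 20 held 27267 to 27464 reads, positions 6 to 13 held 24742 to 25280, and position 15 fell to 16259, between 23670 at position 14 and 27464 at position 16. Relative depth at position 15 was 0.678 there and at least 0.981 in the other 3 edited libraries of site 1. T15A was 0.0308% in that library, so the loss at position 15 came with no matching substitution. The mean depth of positions 16 to 20 exceeded that of positions 6 to 13 by 2391 reads, against 236 to 383 reads in the wild-type libraries, and the library's C1G product counted 2246 reads. Position 4 kept 1.0007 of the wild-type ratio to positions 16 to 20, whereas positions 6 to 13 kept 0.922 and position 5 kept 0.846. Positions 1, 2 and 3 kept 0.994, 0.960 and 0.955. These values are set side by side only: whether the missing reads hold deletions was not tested, as the table has no column for them.

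The number of reads given to a site was a measure that the rule did not use. Site 1 held 8.19 to 10.2% of the reads of the 9 H3 target sites in edited libraries and 8.49 to 9.07% in wild type. At site 6 wild-type replicate 1 had 10.7% and edited replicate 4 had 10.1%, well above the 4.37 to 5.58% of the other 6 libraries. At site 7 wild-type replicate 1 alone was high, with 11.0% against 4.40 to 5.63% in the other 7. Wild-type replicate 1 and edited replicate 4 are both among the 3 libraries without G4A and G19A, and edited replicate 2, the remaining one, had the lowest shares at sites 6 and 7 (4.37% and 4.40%). The groups did not differ beyond their spread: edited minus wild type was 0.121 percentage points at site 1 (interval -0.874 to 1.71, exact permutation p = 0.914), -0.203 at site 6 (-6.33 to 4.91, p = 0.771 by the same exact test) and -1.77 at site 7 (-6.59 to 0.274, p = 0.143 by the same exact test), each with an adjusted p of 0.943 over 9 sites. Without wild-type replicate 1 the site 7 difference was -0.388.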

How the data were processed

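PCR products of embryo DNA were sequenced as Illumina libraries, per the labels' protocols. Bowtie 0.12.2 and the builds mm8 and mm10 are named in the submitters' processing notes with no role given, and the sources used here do not say how reads were filtered or divided among H3 copies. The authors deposited, for each site, position and library, a count of reads with a base call and the percent of them with each base. The percents times the counts gave whole reads within 0.01. The table's library names (W or CH with a number) were tied to sample titles by genotype initial and replicate number. Over 12 replicate pairs the smallest chi-square was 4680 per degree of freedom, far above sampling noise, so each library counts as 1 replicate.

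Relative depth, the mean non-reference share of the 14 unlisted positions and the share of H3 reads were compared by exact two-sided permutation tests over 70 splits (smallest p 0.0286), with Benjamini-Hochberg adjustment over 26, 9 and 9 sites. The interval of a difference has a nominal coverage of 97.1% under a constant shift. Listed changes reaching 1% in at least 1 edited library were given in each library, and other positions were named from 0.5% and above the highest wild-type value. A result counted as past the threshold at an unadjusted p of 0.05. The members, the listed positions and the measures were chosen with earlier results of these data known. The depth measure was run on simulated depths with counting noise only and the same drop, or none, in every simulated edited library. That run therefore did not cover the spread between libraries seen here. Tests ran in scipy 1.17.1, with biopython 1.88 for codons, under Python 3.11.15 with pandas 2.3.3 and numpy 2.4.6.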

Additional observations from a re-analysis of the deposited data

Results flagged for a closer look

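Of 64 groups of 4 libraries checked, 17 held a library far from the other 3. Chance gives about 1 in 20 for unrelated, normally distributed values, but many of these are related or are shares near 0. The sites were also chosen for edited shares that differ among libraries, so the 17 are not read against that rate. A base change was checked only where its share was high enough in at least 1 edited library. This favours single high edited libraries, so the split between the groups is not read either. Of the 17, 10 lay in the edited group. At site 1 they were edited replicate 1 for C1G (8.26%), C13T (0.506%) and relative depth at position 15 (0.678), and edited replicate 2 for C7T (53.6%) and relative depth at position 7 (0.839). At site 6 they were edited replicate 3 for C5A (19.3%), replicate 1 for C13T (0.955%) and replicate 2 for T15A (0.986%). At site 7 they were edited replicate 1 for C13T (0.492%) and replicate 2 for T15A (0.498%).

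The other 7 lay in wild type. Replicate 1 had the lowest non-reference share at the unlisted positions of sites 1 and 6 (0.118% and 0.174%, against 0.248 to 0.270% and 0.408 to 0.431%) and the highest share of H3 reads at sites 6 and 7 (10.7% and 11.0%). Its C1G at site 1 (0.0126%) and C5A at site 6 (0.00346%) were far from 3 libraries at 0, and T15A at site 7 was 0.0316% in replicate 2. The last 3 rest on very few reads.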

How the results depend on the processing

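Of 108 alternatives of tested results, 81 kept direction and side of the threshold. Without edited replicate 2, mean C7T was 0.334% in place of 13.7% at site 1 and 10.6% in place of 30.3% at site 7. For relative depth at position 5, site 1 fell short with positions 4 to 8 (-0.0162), position 7 (-0.0407) or the replicate block (-0.0735, exact permutation p = 0.125), and site 7 with the same 3 settings (-0.0339, -0.105 and -0.0864). Site 6 passed the unadjusted threshold with positions 1 and 20 as reference (-0.0582) and with the highest depth (-0.0630). With single libraries left out, the difference ran from -0.0805 to -0.0452 at site 6 and from -0.113 to -0.0596 at site 7. Pairing by replicate number gives no p under 0.125 with 4 pairs; same-numbered libraries did not deviate together in site depth (correlations -0.0354, -0.146, -0.0928 and -0.281). None of the settings brought the non-reference share or the share of H3 reads past the threshold. Signs turned for the non-reference share with the median over positions at sites 6 and 7 (0.000321 and 0.0123) and without positions above 1% in wild type at site 6 (0.00128). With libraries left out it ran from -0.0734 to 0.00381, -0.118 to 0.00565 and -0.0495 to 0.0109 at sites 1, 6 and 7. The share of H3 reads at site 6 was 0.0206 over all 26 sites, and with libraries left out ran from -0.319 to 0.349 at site 1 and -1.43 to 1.16 at site 6. The count of 1 change at the unlisted positions fell to 0 with at least 10 reads required or a margin of 2 times, and was 1 to 3 with libraries left out. The cause of these moves was not tested. Depth limits shares under about 0.02%, where a count of 3 reads lies.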
